A study of Mus musculus with 6 samples.

Results

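The cGAS-STING pathway was described here through 8 genes, Cgas, Sting1, Tbk1, Ikbke, Trex1, Samhd1, Enpp1 and Banf1, taken by symbol from a table of 55487 mouse genes. Each symbol matched 1 row, and 7 of the 8 had a value. RNA had been sequenced from bone marrow-derived dendritic cells (BMDC), which are myeloid cells grown out of marrow in culture, and the labels give female mice aged 4 to 8 weeks for every sample. One group, NanoCa, had received a calcium-containing lipid nanoparticle at 100 μM, while the other, Mock, is labelled as untreated, although the protocol that names the particle stands on the Mock samples too. All samples share 1 batch date, no genotype beyond sex and age is given, and the exposure time is not given in the sources used here. Each group has 3 deposited columns, but the column of replicate 3 was a constant (1.0011 in NanoCa, 1.001876 in Mock) times the mean of replicates 1 and 2, so 2 libraries per group were compared.

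The pathway reports DNA in the cytosol. The enzyme cGAS binds double-stranded DNA and makes the cyclic dinucleotide cGAMP, which binds STING on the endoplasmic reticulum. STING then moves to the Golgi and recruits the kinases TBK1 and IKKε, which phosphorylate the transcription factor IRF3 and so switch on the interferon beta gene. Nucleases and chromatin proteins keep self DNA away from cGAS, and a hydrolase outside the cell removes cGAMP. In dendritic cells and macrophages the pathway is a main source of type I interferon in response to DNA viruses and damaged cells. The series title places the particle in work on interferon beta, and the question asked of the 8 genes is which of their transcripts differed between NanoCa and Mock.

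Values are FPKM, reads scaled by gene length and by the reads of the library, so levels can be set side by side between genes. The Mock libraries held 31131990 and 26975437 reads and the NanoCa libraries 23991472 and 22793565, as worked out from the FPKM steps. The labelled cell type was only partly borne out by its markers: Cd74 (777 to 1250 FPKM) and Itgax (72.7 to 119) were among the more abundant transcripts, but the dendritic lineage genes Flt3 (0.182 to 0.385) and Zbtb46 (0.495 to 0.635) were under 1 FPKM in all 4 libraries. The 8 dendritic cell markers summed to 1970 and 1950 FPKM in Mock and to 1270 and 1350 in NanoCa. Most of each sum came from Cd74 and H2-Ab1, so it says little about the other markers. Of 6 tested, 4 fell (Itgax and Cd74 to 62.2% and 64.1% of Mock, H2-Ab1 and Batf3) and 2 rose (Ccr7 and Irf8). The 8 macrophage and monocyte markers summed to 1560 and 1580 FPKM in Mock and to 2420 and 2590 in NanoCa. Of these 8, 6 rose and 2 fell (Mrc1 to 44.3% of Mock, Mertk to 81.9%). Mertk was not called after the rescaling described below. The counts of both marker lists are to be read against all genes tested, of which 21.7% were called higher and 49.7% lower. Lymphocyte markers summed to at most 0.183 FPKM. Other markers differed between the groups. The summed dividing cell markers were 240 and 230 FPKM in Mock and 27.1 and 26.8 in NanoCa. Neutrophil markers summed to 228 and 415 against 50.8 and 62.9, and most of the NanoCa sum was S100a8 (47.8 and 58.0). The mast cell and basophil markers summed to 11.6 and 18.6 against 2.45 and 2.62. Plasmacytoid dendritic cell markers summed to 7.24 and 6.46 in Mock and 12.9 and 14.3 in NanoCa, mostly from Tcf4 and Cox6a2, while the lineage marker Siglech had 14 and 8 reads in Mock and 0 in both NanoCa libraries. Xist had 1 read in each Mock library against 33.5 and 33.3 FPKM in NanoCa, and the 4 Y-linked genes measured, with reads in all 4 libraries, stood in NanoCa at 29.4% to 40.4% of Mock. Reads of Y-linked genes go against the label of female mice in both groups, and the near absence of Xist does so in Mock. The groups thus differ in sex-linked transcripts as well as in treatment. All these marker differences run along the same split as the treatment. Their part in the values of the members, and of the other genes given below, cannot be told apart from that of the treatment.

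Of the 7 members with a value, 3 were higher in NanoCa (Ikbke, Samhd1 and Cgas), 2 were lower (Sting1 and Enpp1) and 2 were not called (Tbk1 and Banf1). The test was limma on log2(FPKM + 1) with Benjamini-Hochberg adjustment over 11116 genes, and it called 71.3% of all genes tested, 21.7% as higher and 49.7% as lower. A call is therefore common in this comparison, and the members' shares (42.9% higher, 28.6% lower) rest on 7 genes. The log2 fold change had a median of -0.17 over all genes. After rescaling each library by the median of its ratios to the average library, which shifts that value by 0.17, Tbk1 and Banf1 passed as higher too. The members then numbered 5 higher and 2 lower, against 33.4% and 32.6% of all genes. A call together with a change of at least 2-fold on the log2(FPKM + 1) scale was made for 0 members upward and 1 downward, against 5.05% and 5.78% of all genes. In whole culture RNA, fewer cells of a type and less RNA per cell cannot be told apart.

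**Figure D1:**
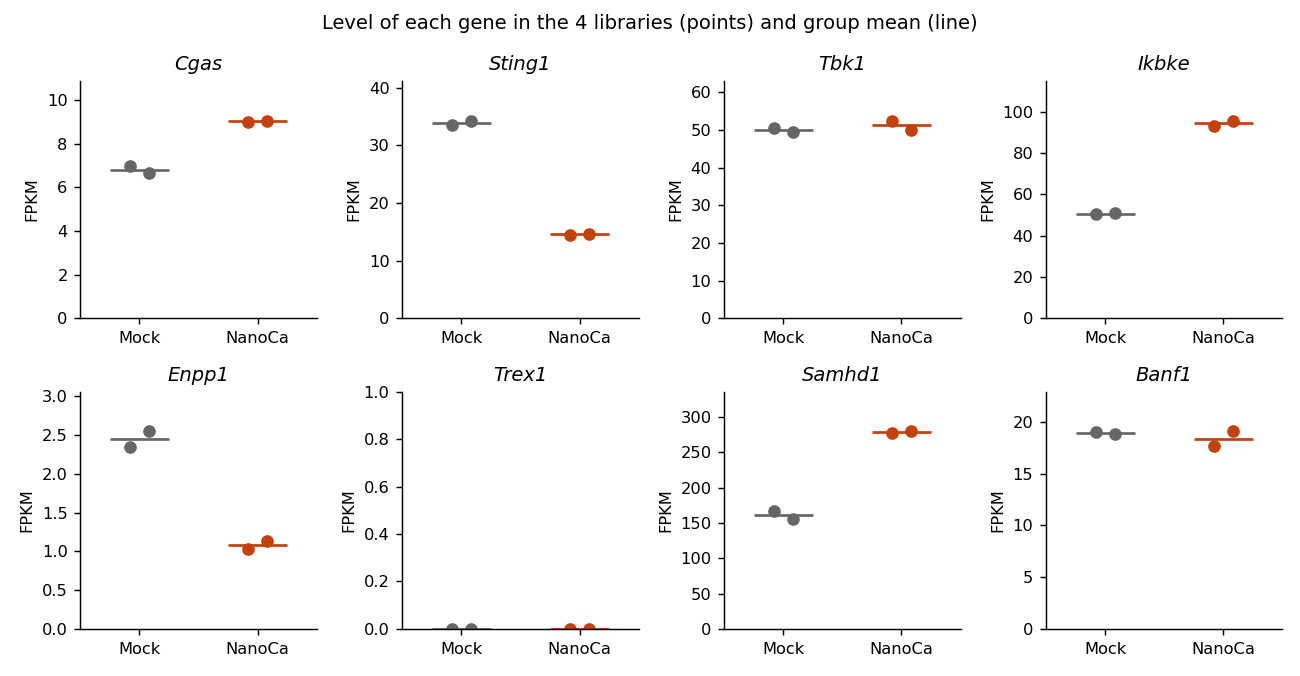
FPKM of the 8 genes in each library (points; grey Mock, orange NanoCa; 2 libraries per group) with the group mean as a line; each vertical axis starts at 0 and has its own range. The groups stand apart for Cgas, Sting1, Ikbke, Enpp1 and Samhd1, overlap for Tbk1 and Banf1, and Trex1 is listed at 0 in every library.

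Upstream sequences are shown for Cgas, Ikbke and Samhd1, which rose, and for Enpp1, which fell. Sting1 was left out of the sequence search, so the window counts below say nothing about it. RefSeq promoter windows (build GRCm38.p6) of the other 7 members were taken by symbol, 9 windows in all. The 250 bases before the start site are printed 5′ to 3′ on the minus strand, where all of these genes lie, at chr9:78443238-78443487 for Cgas, chr1:131279564-131279813 for Ikbke, chr2:157135097-157135346 for Samhd1 and chr10:24712160-24712409 for Enpp1. Capitals mark a match to 1 of the motifs searched.
Cgas: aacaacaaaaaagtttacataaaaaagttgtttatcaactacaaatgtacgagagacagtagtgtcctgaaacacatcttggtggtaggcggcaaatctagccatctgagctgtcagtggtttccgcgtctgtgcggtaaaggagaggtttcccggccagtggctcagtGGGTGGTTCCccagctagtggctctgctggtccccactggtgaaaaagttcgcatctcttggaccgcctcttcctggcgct
Ikbke: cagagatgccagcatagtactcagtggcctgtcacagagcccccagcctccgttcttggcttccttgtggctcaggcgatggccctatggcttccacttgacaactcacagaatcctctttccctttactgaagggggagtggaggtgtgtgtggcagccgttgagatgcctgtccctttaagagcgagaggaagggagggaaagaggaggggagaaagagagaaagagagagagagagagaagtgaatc
Samhd1: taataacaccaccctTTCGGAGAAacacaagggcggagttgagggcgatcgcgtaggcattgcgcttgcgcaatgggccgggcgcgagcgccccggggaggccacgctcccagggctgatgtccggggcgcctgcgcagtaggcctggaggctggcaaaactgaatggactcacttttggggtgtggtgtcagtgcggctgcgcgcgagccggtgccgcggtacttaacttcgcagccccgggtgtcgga
Enpp1: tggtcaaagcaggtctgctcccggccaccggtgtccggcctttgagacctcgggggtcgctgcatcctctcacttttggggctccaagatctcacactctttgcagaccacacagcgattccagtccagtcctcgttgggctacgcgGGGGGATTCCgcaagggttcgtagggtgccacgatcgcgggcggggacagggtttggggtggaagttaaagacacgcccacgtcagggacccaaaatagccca

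Short letter patterns were searched on both strands of the full 300-base windows. The core of the interferon-stimulated response element, bound by interferon-activated factors, was searched as GAAA and GAAA with any 2 bases between. It was in 3.44% of all 32851 windows and in 0 of the 9 member windows. The gamma-activated site TTCNNNGAA, bound by STAT dimers, was in 8.3% of all windows. Among the members searched, which leave out Sting1, it was only in Samhd1, as TTCGGAGAA at 235 to 227 bases before the start. A wide form of the NF-κB site, GGG and TTCC with any 3 bases between, was in 5.56% of all windows and was found in Cgas (GGGTGGTTCC, 81 to 72 bases before the start) and Enpp1 (GGGGGATTCC, 103 to 94 bases before it), which moved in opposite directions. The narrower GGGA and TTCC with any 2 bases between, which is contained in the wide form, was in 1.47% of all windows and in 0 of 9. These are matches of letters and not shown to be bound.

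The sensor itself was present at a modest level and rose. Cgas (ENSMUSG00000032344, chromosome 9) was at 6.97 and 6.67 FPKM in Mock and at 9.0 and 9.07 in NanoCa, from 729 to 879 reads per library. Both NanoCa libraries lay above both Mock libraries. That held for 3 of the 7 members and for 27.4% of all genes tested, and in either direction for 5 members and 86.3% of genes. The NanoCa mean was 132% of Mock (log2 fold change 0.36, SE 0.051, limma adjusted p = 0.00108). The ratio of read rates was 1.32 (exact 95% interval 1.23 to 1.42, counting error only). Among the genes tested, Cgas stood at percentile 37.7 of level in Mock and 49.3 in NanoCa, and its change was at the 86th percentile of all changes.

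The adaptor went the other way. Sting1 (ENSMUSG00000024349, chromosome 18), which encodes the cGAMP receptor STING, was at 33.5 and 34.3 FPKM in Mock and at 14.4 and 14.7 in NanoCa. The 2 libraries of a group differed by less than 1 FPKM, and the groups did not overlap. NanoCa stood at 42.9% of Mock, with a log2 fold change of -1.17 (95% interval -1.27 to -1.07, limma adjusted p = 3.93e-06), and -0.99 relative to the median of all genes. This was the 1 member past 2-fold on that scale, and it lay at the 4th percentile of changes. Its rank by level went from percentile 80.9 in Mock to 62.5 in NanoCa.

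Sensor and adaptor can also be set against each other within a library, where scaling to total reads cancels. For each FPKM of Sting1 there were 0.208 and 0.195 FPKM of Cgas in Mock, and 0.625 and 0.616 in NanoCa. The mean ratio was thus 3.08 times as high in NanoCa (0.62 ± 0.00665 against 0.201 ± 0.00931, SD, n = 2). With 2 libraries against 2 an exact permutation test cannot pass 0.05, so no test is given. Sting1 remained the more abundant transcript of the pair in all 4 libraries.

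Transcripts of the kinases that STING recruits did not differ alike between the groups. Ikbke (ENSMUSG00000042349, chromosome 1), which encodes the inducible kinase IKKε, was at 50.3 and 50.9 FPKM in Mock and at 93.4 and 95.8 in NanoCa. The NanoCa libraries stood clear of Mock, at 187% of it (log2 fold change 0.89, SE 0.037, limma adjusted p = 6.86e-06), and the change lay at the 94th percentile of all genes. Tbk1 (ENSMUSG00000020115, chromosome 10), the broadly expressed kinase of the pair, was at 50.4 and 49.5 FPKM in Mock and 52.5 and 49.9 in NanoCa. Its groups overlapped, and the log2 fold change was 0.04 (95% interval -0.07 to 0.14, limma adjusted p = 0.471). That interval is on the deposited scale. After rescaling it was 0.23 (0.11 to 0.34, adjusted p = 0.0049), with quantile normalization it turned to -0.03, and without NanoCa replicate 1 it was -0.001, so no direction is given for Tbk1.

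In Mock the transcripts of the kinases stood at the same level per length, with 0.999 and 1.03 FPKM of Ikbke for each FPKM of Tbk1. In NanoCa the ratio was 1.78 and 1.92. Ikbke thus made up 50.3% ± 0.539 of their summed FPKM in Mock and 64.9% ± 1.24 in NanoCa (SD, n = 2). The sum was 101 ± 0.214 FPKM in Mock and 146 ± 0.197 in NanoCa (SD, n = 2), 1.45 times as high.

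**Figure D2:**
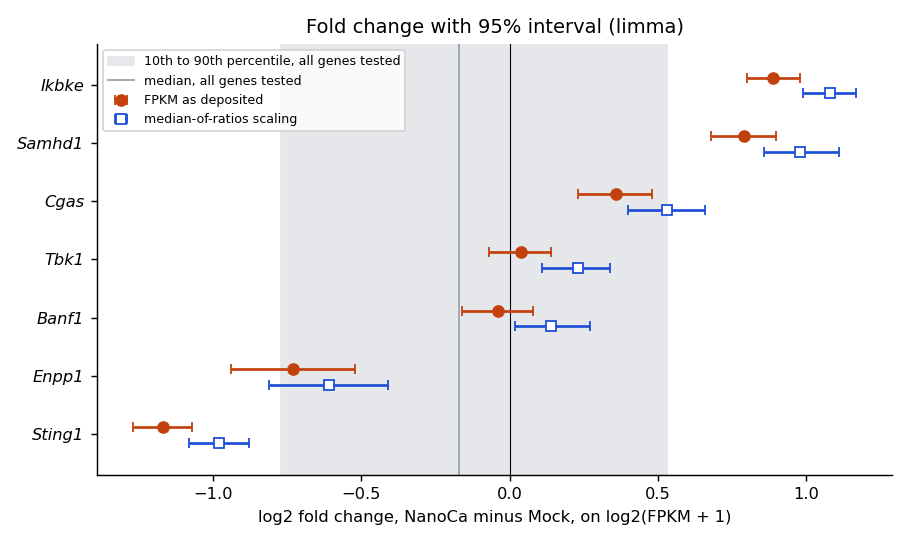
Log2 fold change (NanoCa minus Mock, on log2(FPKM + 1)) of the 7 members with a value, with 95% intervals from limma (2 libraries per group), on the deposited scale (filled circles) and after rescaling by the median of ratios (open squares); grey band and line give the 10th to 90th percentile (-0.77 to 0.53) and the median (-0.17) of all genes tested on the deposited scale. On the deposited scale Ikbke and Samhd1 lie to the right of the band and Sting1 to its left, while the intervals of Tbk1 and Banf1 cross 0 only on the deposited scale.

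Enpp1 (ENSMUSG00000037370, chromosome 10), a membrane pyrophosphatase that hydrolyses cGAMP outside the cell, was the scarcest member with a value. It was at 2.35 and 2.55 FPKM in Mock and at 1.03 and 1.13 in NanoCa, from 495 and 467 reads against 167 and 175. Every NanoCa value was below every Mock value. The NanoCa mean was 44.1% of Mock, while the log2 fold change of -0.73 (SE 0.084, limma adjusted p = 0.000432) understates this because 1 was added to low values. The ratio of read rates was 0.442 (0.389 to 0.5), much like the 0.43 (0.405 to 0.455) of Sting1. Enpp1 lay close to the filter of a mean of 1 FPKM, and passed it in each group taken alone.

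Among the genes that limit DNA or its building blocks, Samhd1 (ENSMUSG00000027639, chromosome 2), a phosphohydrolase that breaks down deoxynucleotides, was the most abundant member. It stood at 167 and 155 FPKM in Mock and at 278 and 280 in NanoCa. The groups were far apart, and NanoCa was at 173% of Mock (log2 fold change 0.79, SE 0.046, limma adjusted p = 2.55e-05). By level it ranked at percentile 96.2 in Mock and 97.8 in NanoCa. Banf1 (ENSMUSG00000024844, chromosome 19), which encodes barrier-to-autointegration factor, a small chromatin protein that competes with cGAS for DNA, was at 19.0 and 18.8 FPKM in Mock and 17.7 and 19.1 in NanoCa. The Mock values lay between the NanoCa values. Its log2 fold change was -0.04 (95% interval -0.16 to 0.08, limma adjusted p = 0.485), and it turned to 0.14 (adjusted p = 0.048) after rescaling and to 0.085 with quantile normalization, so no direction is given for it either.

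Trex1 (ENSMUSG00000049734, chromosome 9), the main exonuclease that degrades cytosolic DNA, was listed at 0 in every column. In the GENCODE vM21 annotation (build GRCm38) all 1147 exon bases of Trex1 also belong to exons of the neighbouring gene Atrip on the same strand, and 95.8% of the 50-base words in Trex1 transcripts occur in Atrip transcripts too. The first 60 coding bases of Trex1 (chr9:109058862-109058921, minus strand, start codon in capitals) show the overlap, since 3 of 9 annotated Atrip transcripts hold them letter for letter.
Trex1: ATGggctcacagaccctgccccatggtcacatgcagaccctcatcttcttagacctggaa

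The same held across the table. Of 140 protein-coding genes whose exon bases are all shared with other genes on the same strand, 140 were listed at 0 in all 4 libraries. The share was 19.5% of 1618 genes that share some exon bases and 29.3% of 20139 genes that share none. How the authors' counting treated shared bases is not given in the sources used here, and the annotation they used was not examined. Atrip itself, a partner of the checkpoint kinase ATR, was at 2.43 and 2.52 FPKM in Mock and 2.38 and 2.40 in NanoCa (log2 fold change -0.03, adjusted p = 0.686). None of the other members shares an exon base with another gene on the same strand. Over both strands Banf1 shares 28.6% of its exon bases, Cgas 4.87% and Ikbke 2.48%, and without knowing whether strand was used, reads of an opposite gene cannot be told apart there. Of 41 genes whose exon bases are all shared only once the opposite strand is counted, 16 (39.0%) were listed at 0, against all 140 of those shared on the same strand.

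**Figure D3:**
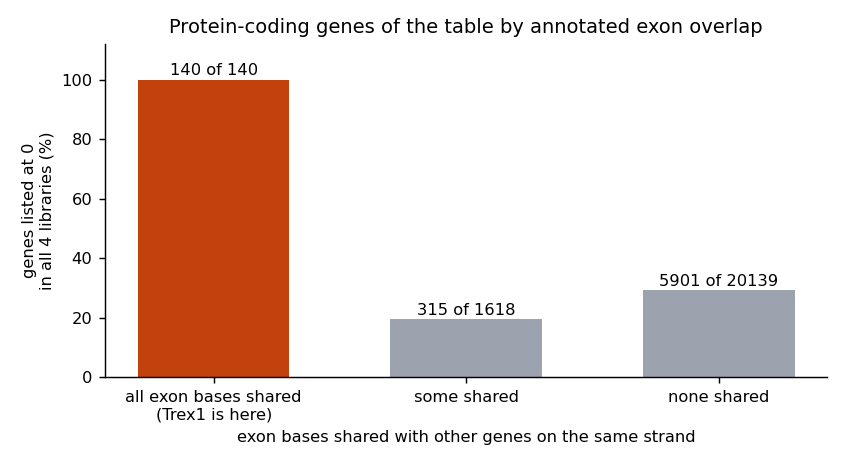
Percentage of protein-coding genes listed at 0 in all 4 libraries, by the share of their annotated exon bases (GENCODE vM21) that belong to other genes on the same strand; numbers above the bars are genes at 0 of all genes in the class. The class that holds Trex1 is at 140 of 140, against 315 of 1618 and 5901 of 20139 in the others. A class of 41 genes shared in full only over both strands (16 at 0) is not drawn apart from these.

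Beyond the members, 92 genes with known roles around the pathway were followed in 7 lists. Of these, 85 were tested: 32 rose, 32 fell and 21 were not called, and the split turned to 47 up against 18 down after rescaling. All genes tested stood at 21.7% up and 49.7% down, and at 33.4% and 32.6% after rescaling, and the list counts that follow are to be read against these shares. Their median log2 fold change was 0.00, against -0.17 for all genes. 

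Of the adaptors, phosphatases and substrates of TBK1, 9 of 13 rose (69.2%, against 21.7% of all genes) and 2 fell (15.4%, against 49.7%). After rescaling 11 rose and 0 fell, where all genes were at 33.4% and 32.6%. The median was 0.31, or 0.48 relative to all genes. The scaffold proteins that hold the kinases were among them. Tank went from 71.9 ± 1.40 to 114 ± 2.92 FPKM (SD, n = 2; log2 fold change 0.66, limma adjusted p = 2.84e-05), and Azi2, which encodes NAP1, from 53.9 ± 4.31 to 90.3 ± 5.06 (0.74). Traf3, the ubiquitin ligase that links receptors to TBK1, rose by less (0.31), as did the NF-κB subunit gene Rela (0.42). The third scaffold gene, Tbkbp1, was lower (-0.25), as was the phosphatase gene Ppm1b (-0.26), and neither was called after rescaling. The call of Tbkbp1 was also lost without NanoCa replicate 1, NanoCa replicate 2 or Mock replicate 2. Irf3, the factor that TBK1 phosphorylates, was at 13.9 ± 1.60 FPKM in Mock and 15.7 ± 0.821 in NanoCa (0.16, adjusted p = 0.115), and was called higher under 6 of 14 alternatives. These included rescaling (0.35, limma adjusted p = 0.00633), quantile normalization (0.30, limma adjusted p = 0.018), limma-voom (0.18, adjusted p = 0.0464) and the replicate block (0.16, limma adjusted p = 0.0242). The others were leaving out Mock replicate 2 (0.27) and all 3 deposited columns (0.16, limma adjusted p = 0.0373). The fit of all 3 columns adds no data, since replicate 3 is a scaled mean of replicates 1 and 2, and its p-value is too small for that reason. Irf7, its interferon-induced relative, was at 14.1 ± 3.04 and 366 ± 18.1 FPKM.

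All 8 target genes of the pathway were higher (21.7% of all genes were), by log2 fold changes of 2.26 (Ifnb1) to 5.02 (Rsad2) on log2(FPKM + 1). This order depends on the 1 added to low values: in FPKM Ifnb1 was at 6100% of Mock and Rsad2 at 3410%, and with a pseudocount of 0.01 the log2 fold changes were 5.77 and 5.10. Other receptors reach the same genes through the same kinases and factors. Ifnb1, the interferon beta gene, rests on 2 and 1 reads in Mock and 82 and 63 in NanoCa. Its mean was 0.0675 FPKM in Mock and 4.12 in NanoCa, so it passed the filter of a mean of 1 FPKM only through NanoCa. Its place in the count of 8 is therefore not independent of the filter.

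**Figure D4:**
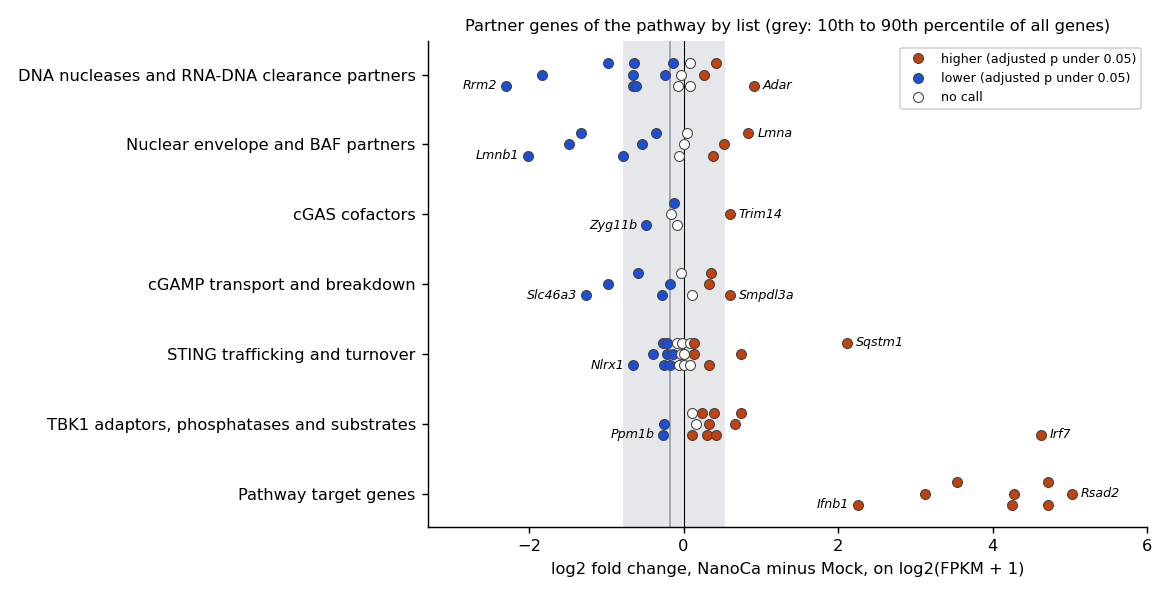
Log2 fold change (NanoCa minus Mock, on log2(FPKM + 1)) of the 85 tested partner genes in 7 lists; filled orange points were called higher, blue points lower, open points were not called, and the lowest and highest gene of each list are named. Grey band and line give the 10th to 90th percentile and the median of all genes tested. TBK1 partners lie mostly to the right of the median and all target genes lie beyond 2, while the nuclease and nuclear envelope lists reach below -2.

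Among the genes that carry STING between compartments or turn it over, 5 of 21 rose and 8 fell, and this split turned to 12 and 2 after rescaling. The share that rose, 23.8%, was near the 21.7% of all genes, while 38.1% fell against 49.7%. The median was -0.03, or 0.14 relative to all genes. Sqstm1, the autophagy receptor p62, which has been linked to STING turnover, went from 107 ± 2.03 to 470 ± 13.9 FPKM (SD, n = 2; log2 fold change 2.12, SE 0.041, limma adjusted p = 8.98e-07). Rhbdf2, which encodes iRhom2, a protein that aids STING trafficking, rose as well (0.74), and so did the ESCRT gene Hgs (0.33). Trim56, a ubiquitin ligase reported to act on STING, was at 8.15 ± 0.0925 and 9.11 ± 0.156 FPKM (0.14, adjusted p = 0.0359), a call lost without any 1 of the 4 libraries. Nlrx1, an inhibitor of STING signalling, was lower (-0.65), as was the palmitoyltransferase gene Zdhhc3 (-0.40). Copa (-0.26), Zdhhc7 (-0.25) and Stim1, the calcium sensor that holds STING at the endoplasmic reticulum (-0.21), were called lower on the deposited scale and not after rescaling. Stim1 also lost its call without NanoCa replicate 1 (-0.155).

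For cGAMP transport and breakdown, 3 of 10 tested genes rose and 5 fell (4 and 3 after rescaling), and 3 more were under the filter. These shares lie near the 21.7% and 49.7% of all genes. Smpdl3a, which encodes a lysosomal phosphodiesterase reported to degrade cGAMP, was abundant and rose from 226 ± 5.17 to 345 ± 10.4 FPKM (SD, n = 2; log2 fold change 0.60, limma adjusted p = 5.36e-05), opposite to Enpp1. The exporter gene Abcc1 rose too (0.33), and the importer gene Slc46a1 was at 0.788 ± 0.104 and 1.30 ± 0.0776 FPKM (0.36, adjusted p = 0.0153), a call lost without NanoCa replicate 2 or Mock replicate 1. Slc46a1 passed the filter of a mean of 1 FPKM only through NanoCa, so its place among the genes that rose is not independent of the filter. Slc46a3 (-1.26) and the volume-regulated channel subunits Lrrc8b (-0.98) and Lrrc8c (-0.59) fell. P2rx7, the ATP-gated channel, was at -0.28, a call lost after rescaling.

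Among nucleases and genes that clear nucleic acids, 3 of 16 tested genes rose and 9 fell (6 and 7 after rescaling), or 18.8% and 56.2%, near the 21.7% and 49.7% of all genes. Adar, which edits double-stranded RNA, rose from 19.4 ± 1.10 to 37.4 ± 0.731 FPKM (SD, n = 2; log2 fold change 0.91, limma adjusted p = 2.15e-05). Pld3 (0.42), a lysosomal exonuclease, and the X-linked gene Dnase1l1 (0.27) rose by less. The subunits of ribonuclease H2, which removes ribonucleotides from DNA, all fell, with Rnaseh2b at -0.98, Rnaseh2a at -0.65 and Rnaseh2c, named here after its value was seen, at -0.65, and all were called after rescaling too. Rrm1 and Rrm2, the subunits of ribonucleotide reductase, which makes the deoxynucleotides that SAMHD1 breaks down, fell further. Rrm2 went from 32.9 ± 1.02 to 5.88 ± 0.199 FPKM (-2.30) and Rrm1 from 39.1 ± 2.52 to 10.3 ± 0.364 (-1.83). Dividing cell markers fell alongside, Mki67 for example from 55.2 and 54.1 FPKM to 5.54 and 5.58, and their part in these falls was not tested.

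The nuclear envelope and chromatin genes around BAF went both ways: 3 of 12 rose and 6 fell (5 and 5 after rescaling). This is close to the shares of all genes, 21.7% and 49.7%. Lmnb1, the B-type lamin, fell from 15.7 ± 0.0659 to 3.14 ± 0.0604 FPKM (SD, n = 2; log2 fold change -2.01, limma adjusted p = 1.53e-06), while Lmna, the A-type lamin, rose from 19.8 ± 0.557 to 36.3 ± 2.38 (0.84). The LEM-domain gene Tmpo (-1.48), the kinase gene Vrk1 (-1.33), whose product releases BAF from DNA, and Hmgb1 (-0.78) fell. Dividing cell markers fell as well (Mki67 to 10.2% of Mock). Their part in the falls of Lmnb1, Tmpo, Vrk1 and Hmgb1 was not tested. Lemd2 (0.52) and Vrk2 (0.38) rose. The X-linked gene Emd, which encodes the BAF partner emerin, was at 18.0 FPKM in both groups (-0.00, limma adjusted p = 0.996). Lemd3 was at -0.06 (limma adjusted p = 0.396). After rescaling Emd was called higher (0.18, limma adjusted p = 0.0199), and Lemd3 turned to 0.11 (adjusted p = 0.161).

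Cofactors of cGAS were few, and 1 up and 2 down of 5 tested (20.0% and 40.0%) is near the all-gene shares. Among them Trim14, which stabilises cGAS, rose (0.60), Zyg11b fell (-0.48), and G3bp1 was at -0.12 (adjusted p = 0.043), a call lost without any 1 of the 4 libraries and after rescaling (0.06).

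Over the 4 libraries, the centred log2(FPKM + 1) profile nearest to that of Cgas was of Dnajc21, then Acsl4 and Eif1 (Euclidean distances 0.017, 0.019 and 0.02). For Sting1 the nearest were Nhsl2, the Y-linked Uty and Tesk2 (0.021, 0.024 and 0.027). Such closeness is common in 4 libraries that split into 2 groups, since 299 genes lay within 0.1 of Cgas and 63 within 0.1 of Sting1.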

How the data were processed

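The deposited table gives FPKM per gene, as computed by the authors against GRCm39 per the submitters' processing notes. RNA was extracted with a phenol reagent and made into SMARTER mRNA libraries, per the labels' protocols. The sources used here do not name an aligner, counter or annotation. Whole reads (tolerance 1e-06) were recovered from the FPKM steps for 23929 of 23929 genes with a value. One read in a gene of 1 kilobase is worth 0.0321 to 0.0439 FPKM. Genes with a mean of at least 1 FPKM over the 4 libraries (11116) were fitted with limma 3.58.1 in R 4.3.3 (lmFit, eBayes with a trend, pseudocount 1, two-sided, threshold 0.05). The script was tested on simulated data in which few genes changed, as many up as down. Most genes were called in the present comparison, so that test does not speak for its error rate here. Since the labels do not tie replicates to separate animals or cultures, the p-values reflect library-to-library spread that may be technical. Intervals of read ratios are exact 95% intervals. Figures were drawn with matplotlib 3.10.9. The members, lists and naming rule (up to 4 genes per list and direction by size, plus 11 fixed names, and the 3 nearest profiles) were chosen with earlier results of these data known, so no test over a list is given. Alternatives covered pseudocount, filter, scaling, columns, replicates, block and sex chromosomes. The alternative with all 3 deposited columns per group adds no library, so its p-values are too small and it is no separate evidence.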

Additional observations from a re-analysis of the deposited data

How the results depend on the processing

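Cgas, Sting1, Ikbke and Samhd1 kept direction and call in 14 of 14 alternatives, and Enpp1 in the 13 that tested it. Log2 fold changes ranged from 0.33 to 0.55 for Cgas, -1.22 to -0.98 for Sting1, 0.79 to 1.08 for Ikbke, 0.69 to 0.98 for Samhd1 and -1.18 to -0.50 for Enpp1. With a mean FPKM of at least 5, Enpp1 was not tested and 1 member was lower. Median-of-ratios scaling gave 5 members higher, 18 partner genes lower, 3717 genes higher and 3620 lower, with Tbk1 at 0.23, Banf1 at 0.142, Emd at 0.183, Lemd3 at 0.108 and G3bp1 at 0.062. By construction it moves the median of all genes by 0.17. Quantile normalization gave Tbk1 -0.032, Banf1 0.085, Emd 0.125, Lemd3 0.149 and G3bp1 0.002, and limma-voom gave Emd -0.002; the cause was not tested. Leaving out 1 library at a time gave -0.001 to 0.072 for Tbk1, -0.094 to 0.011 for Banf1 and -0.05 to 0.049 for Emd, with the lone library of a group assumed to vary like the other group. The Cgas to Sting1 ratio was then 2.98 to 3.19 times as high in NanoCa and the Ikbke to Tbk1 ratio 1.75 to 1.89 times. Of 668 values of 48 named partner genes, 625 kept direction and call. Replicate numbers are shared between groups, and the replicate differences of NanoCa and Mock correlated at 0.13 over genes, which with 2 pairs does not show pairing. With the replicate block, 3 members were higher and 2 lower, Sting1 was at -1.17, and Irf3 was called (0.16, adjusted p = 0.0242). Trex1 has no value under any alternative. With 2 libraries per group, differences of the size of Tbk1 and Banf1 cannot be given a direction.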
